A study of Mus musculus with 4 samples.

Results

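The gp130, JAK and STAT3 signaling genes are 8 of the 53465 genes listed in the count table, taken by their symbols: the cytokine Il6, the receptor chains Il6ra and Il6st (gp130), the kinases Jak1, Jak2 and Tyk2, the transcription factor Stat3 and the phosphatase Ptpn11. The set was chosen by the measured fall of Il6st in the EGCG treatment group, so that the contrast of EGCG with control is given for these genes as a description and not as evidence. All 8 passed the filter on low counts. The cells were myeloid-derived suppressor cells (MDSCs), a mixed population of immature myeloid cells that expands with tumors, from spleens of male BALB/c mice that carried 4T1 breast tumors, a transplantable mammary carcinoma of this strain. The labels place the collection of the spleens on day 21, whereas the methods of the study give an earlier day for the sort. Cells were isolated with magnetic beads and an antibody against Gr-1, an epitope of Ly-6G and Ly-6C. They were then kept for 6 h in control medium (control group, 2 libraries) or with EGCG, a catechin from green tea, at 5 μg/mL (EGCG treatment group, 2 libraries). Both groups came from tumor-bearing mice, and no source used here names whether libraries of a group came from separate mice, so p-values measure only the spread between these libraries, which may be technical.

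IL-6 binds the receptor chain IL-6Rα, and this pair recruits gp130, the chain that most cytokines of the IL-6 family share. The kinases JAK1, JAK2 and TYK2 sit on the inner part of gp130 and phosphorylate its tyrosines, to which STAT3 binds through its SH2 domain before it is itself phosphorylated, pairs up and enters the nucleus. SHP2, the product of Ptpn11, docks at a separate tyrosine of gp130 and links the receptor to the Ras-MAPK route. In MDSCs, STAT3 is known for its part in expansion and in the production of suppressive factors. Counts of mRNA show the level of the transcripts of these proteins, not their phosphorylation.

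Il6st, whose level chose the set, carries the docking tyrosines of STAT3 in its coding sequence. They stand in the form Tyr-x-x-Gln, where x is any residue. A search of the codons of the longest coding transcript of Il6st in GENCODE M21 (917 codons, 17 exons) found 5 such motifs, of which 4 lie in exon 17, the last exon, which encodes the end of the cytoplasmic tail. These 4 are shown because they are the part of the transcript through which gp130 reaches Stat3. The capitals mark the 4 codons of the motif, positions are counted from the start codon, and the windows lie on the plus strand of GRCm38 at chr13:112503975-112504004, chr13:112504116-112504145, chr13:112504392-112504421 and chr13:112504422-112504442.
Tyr765 of Il6st: cacagcggcTACAGGCACCAGgtcccgtcc
Tyr812 of Il6st: aggcaaccgTATTTCAAGCAGaactgcagt
Tyr904 of Il6st: cccaaaagtTACTTGCCACAGactgtaaga
Tyr914 of Il6st: caaggtggcTACATGCCGCAG

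In the longest coding sequence of each of 21793 genes, 39.6% hold at least 1 such motif in frame and 1.17% hold 5 or more. The tyrosine of Stat3 that the JAK kinases phosphorylate is Tyr705. Its codon is in capitals in the next line, and the window runs from exon 21 into exon 22 of 24 on the minus strand of chromosome 11, between 100889900 and 100893074.
Tyr705 of Stat3: agtgctgccccgTACctgaagaccaagttc

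Each library held between 17767318 and 18390385 counted reads. Levels are given as CPM, read counts set to a common library size with TMM factors. The groups were contrasted with edgeR's quasi-likelihood test over the 14682 genes with enough counts, and a gene is called differentially expressed at a Benjamini-Hochberg adjusted p under 0.05. Of the tested genes, 22 were called (20 lower and 2 higher in the EGCG treatment group), which is 0.15% of them. All 10 neutrophil and granulocytic MDSC markers were detected, among them Ly6g at 943 to 1200 CPM. Their summed level was 55967 and 67594 CPM in the control libraries and 76453 and 67224 CPM with EGCG, so the groups overlapped. Markers of other cell types were detected too, among them the B cell gene Ighm at 1404 to 1642 CPM. Without an unsorted library, these levels cannot show what the sort enriched. Longer genes had lower fold changes (Spearman correlation of -0.286 across 14666 genes, which share their 4 libraries and are not replicates), and values with a correction for length are given for each member and for some of the other results.

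The members differed widely in abundance when levels were set per exonic length, as RPKM (CPM divided by kilobases, with exonic lengths from GENCODE M21). Jak1 stood highest, at 76.7 to 81.5 RPKM over the 4 libraries, and its range overlapped that of Jak2, at 63.5 to 80.9 RPKM. Il6ra followed at 32.0 to 33.9 RPKM, Stat3 at 24.7 to 25.4 RPKM, Tyk2 at 15.5 to 18.2 RPKM and Ptpn11 at 12.4 to 13.7 RPKM, with no overlap between neighbors from Jak2 down to Ptpn11. The least abundant members were Il6st, at 3.54 to 5.97 RPKM, and Il6, at 3.75 to 5.12 RPKM, whose ranges overlapped. The mean was 33.1 RPKM for Il6ra, the IL-6-binding chain, and 4.49 RPKM for Il6st, the signal-transducing chain.

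**Figure D1:**
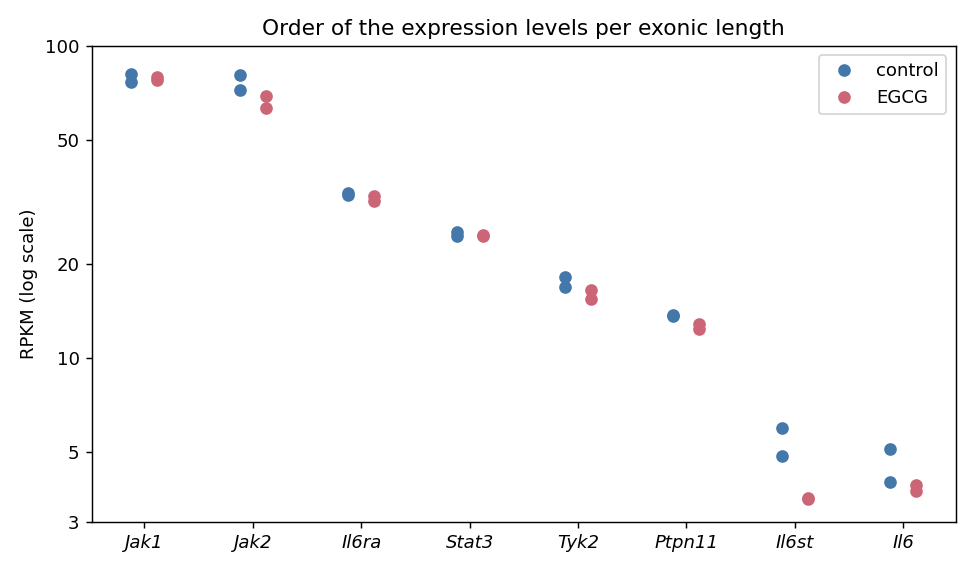
RPKM (log scale) of the 8 members in each library, in the order of their means, with control libraries in blue and EGCG libraries in red. Jak1 and Jak2 lie between 63.5 and 81.5 RPKM, and Il6st and Il6 between 3.54 and 5.97 RPKM.

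Il6st (ENSMUSG00000021756, chromosome 13 of GRCm38 from 112464070 to 112510086, plus strand) encodes gp130. Its counts were 1209 in control replicate 1 and 963 in control replicate 2, and 713 and 710 in EGCG replicates 1 and 2. As CPM it was at 66.2 and 53.9 in the control libraries and at 39.3 and 39.8 with EGCG. Both EGCG libraries lay below both control libraries, and the control libraries differed from each other far more than the EGCG libraries did. The mean was 60.1 ± 8.71 CPM (SD, n = 2) in the control group and 39.5 ± 0.302 CPM (SD, n = 2) in the EGCG treatment group, or 65.8% of control. The log2 fold change was -0.60 with a standard error of 0.10 and a 95% interval from -0.82 to -0.39. Leaving out control replicate 1 gave -0.44, leaving out control replicate 2 gave -0.74, and the length correction gave -0.47. Il6st has an exonic length of 11099 bases, no other gene's exons overlap its own, and 0.514% of its 31-base words occur in transcripts of other genes.

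**Figure D2:**
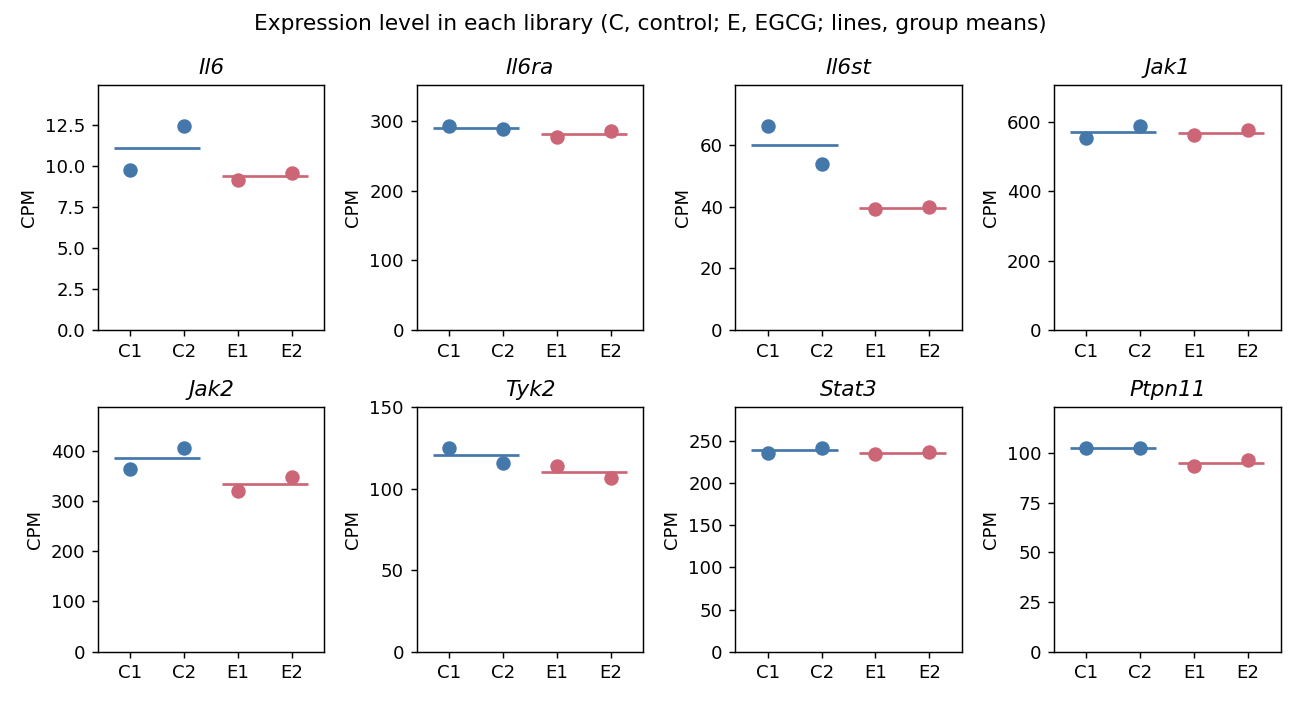
CPM of each member in the 2 control libraries (C1, C2, blue) and the 2 EGCG libraries (E1, E2, red), with group means as lines and each axis starting at 0. Il6st is at 66.2 and 53.9 CPM in control and at 39.3 and 39.8 CPM with EGCG, whereas the points of Stat3 and Jak1 overlap between the groups.

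**Figure D3:**
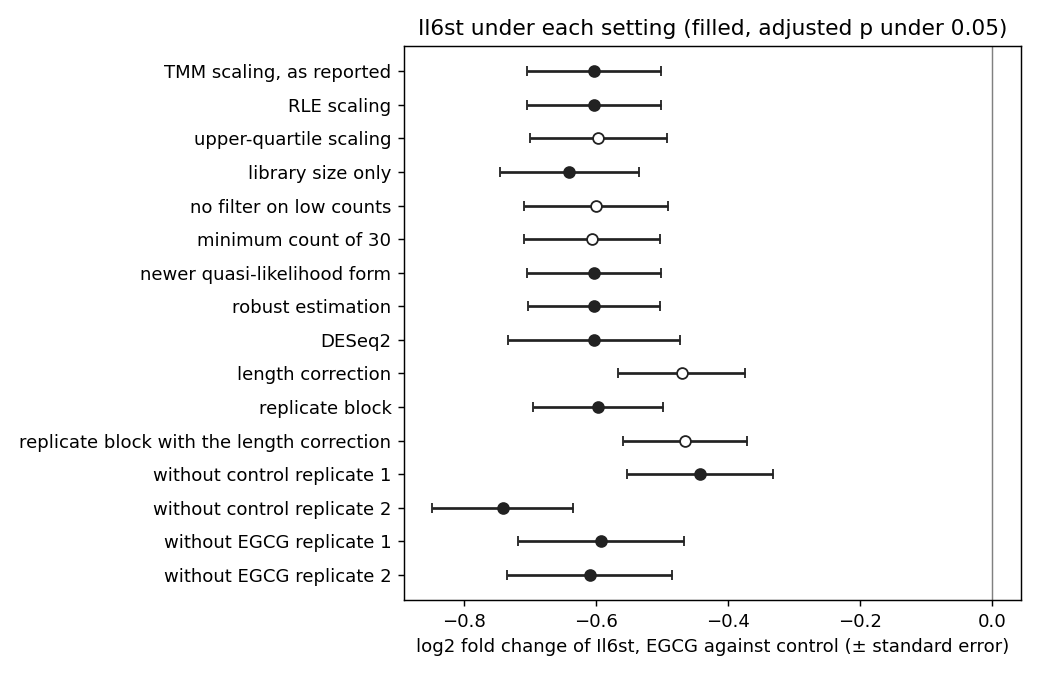
The log2 fold change of Il6st, EGCG against control, with its standard error under each setting of the processing and with each library left out, filled where the adjusted p was under 0.05. All values are below 0, from -0.74 to -0.44.

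Il6ra (ENSMUSG00000027947, chromosome 3 from 89864059 to 89913196, minus strand) encodes IL-6Rα, the chain that binds IL-6. It was at 293.2 and 288.1 CPM in the control libraries and at 276.5 and 285.6 CPM with EGCG. The groups did not overlap, but control replicate 2 and EGCG replicate 2 lay closer to each other than the 2 EGCG libraries did. Its log2 fold change was -0.048 (standard error 0.07, 95% interval from -0.20 to 0.11), and it was 0.052 with the length correction and -0.023 without EGCG replicate 1.
Il6 (ENSMUSG00000025746, chromosome 5 from 30013114 to 30019981, plus strand) encodes the cytokine itself. It drew 178 and 222 reads in the control libraries, against 165 and 171 with EGCG. This is 9.75 and 12.4 CPM against 9.10 and 9.57 CPM, and control replicate 1 lay closer to the EGCG libraries than to control replicate 2. For Il6, the log2 fold change was -0.25 (standard error 0.16, 95% interval from -0.58 to 0.09), and the length correction left it at -0.25. Leaving out control replicate 1 gave -0.41 and leaving out control replicate 2 gave -0.060, so its size rests on which control library is used.

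Among the kinases, Jak2 (ENSMUSG00000024789, chromosome 19 from 29251828 to 29313080, plus strand) differed most. It was at 363.6 and 406.9 CPM in the control libraries and at 319.3 and 347.6 CPM with EGCG, and the groups did not overlap. Its log2 fold change was -0.21 (standard error 0.08, 95% interval from -0.38 to -0.03), which did not reach the adjusted threshold, and it ran from -0.28 to -0.12 with a library left out. Tyk2 (ENSMUSG00000032175, chromosome 9 from 21104068 to 21131243, minus strand) was at 125.2 and 115.8 CPM in the control libraries and at 113.7 and 106.5 CPM with EGCG. The difference was about as large as the gap within each group, at a log2 fold change of -0.13 (standard error 0.08, 95% interval from -0.30 to 0.04) and -0.056 with the length correction. Leaving out control replicate 1 gave Tyk2 a value of -0.068, and the left-out values ran to -0.18. The exons of 1700084C06Rik, an antisense gene, cover 8.07% of the exonic bases of Tyk2. The deposited counts are named as non-stranded, so reads from the exons they share cannot be told apart. Jak1 (ENSMUSG00000028530, chromosome 4 from 101152367 to 101265282, minus strand) was at 554.1 and 589.0 CPM in the control libraries and at 561.3 and 576.6 CPM with EGCG, with both EGCG values inside the control range. Its log2 fold change was -0.0067 (standard error 0.08, 95% interval from -0.17 to 0.16), and it was 0.073 with the length correction.

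Stat3 (ENSMUSG00000004040, chromosome 11 from 100885098 to 100939540, minus strand) was at 235.2 and 242.1 CPM in the control libraries. In the EGCG libraries it was at 234.9 and 237.0 CPM. The groups overlapped, with EGCG replicate 2 between both control libraries. For Stat3, the log2 fold change was -0.016 (standard error 0.07), and its 95% interval corresponds to a fold change between 0.888 and 1.10. With the length correction the log2 value was 0.096. Stat5a, on the other strand, overlaps 0.756% of the exonic bases of Stat3. Ptpn11 (ENSMUSG00000043733, chromosome 5 from 121130533 to 121191397, minus strand), the gene of SHP2, was at 102.7 CPM in both control libraries and at 93.2 and 96.5 CPM with EGCG. The groups did not overlap, and the log2 fold change of Ptpn11 was -0.12 (standard error 0.07, 95% interval from -0.27 to 0.04), against -0.030 with the length correction.

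As a set, 1 of the 8 members was called by edgeR's quasi-likelihood test, against 0.15% of all tested genes, and this gene was Il6st, which chose the set. The call of Il6st was lost in 5 of 11 alternatives of the processing, where the adjusted p of edgeR reached 0.562. Among the other 7 members 0 were called by edgeR, and 1 (Jak2) had an unadjusted p under 0.05. DESeq2 also called 0 of them, but it gave no adjusted p for Il6. At an unadjusted p under 0.05, 7.02% of tested genes were lower and 5.22% were higher in the EGCG treatment group. For 6 of the 8 members both EGCG libraries lay below both control libraries, which was so for 21.2% of tested genes. For 0 members they lay above, which was so for 21.5% of tested genes. All 8 log2 fold changes were below 0 with TMM scaling, but Jak1 turned above 0 with upper-quartile scaling, and Il6ra, Stat3 and Jak1 did so with the length correction, leaving 5 below 0. Without control replicate 2, Stat3 and Jak1 were above 0, and without EGCG replicate 1, Jak1 was. The median log2 fold change of the members was -0.12, against 0.0031 over all tested genes, and with the length correction it was -0.043 against 0.034.

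**Figure D4:**
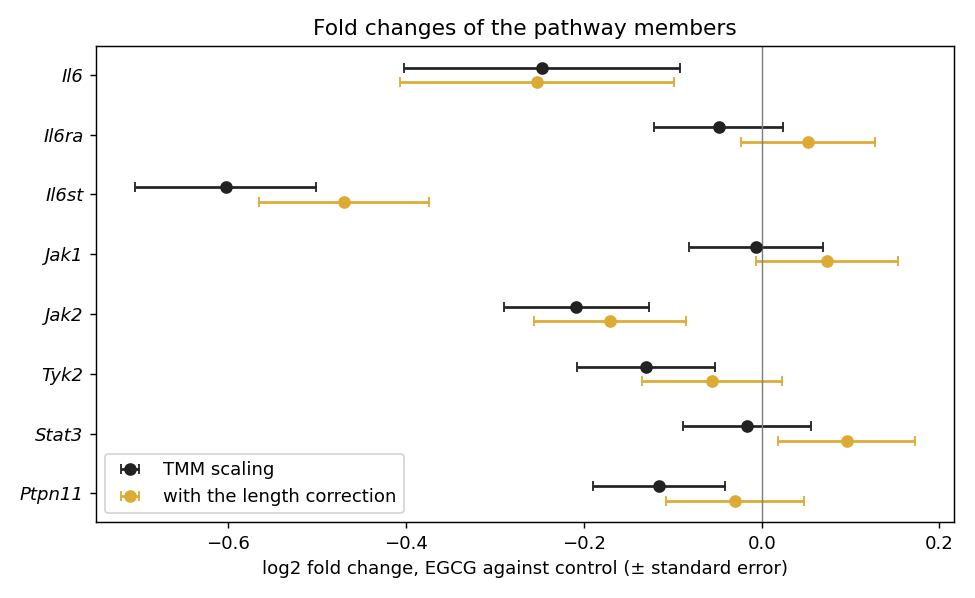
Log2 fold change of each member, EGCG against control, with its standard error (black, TMM scaling; yellow, with the length correction). Il6st lies at -0.60 and -0.47, Jak2 at -0.21 and -0.17, and Stat3, Jak1 and Il6ra lie within 0.10 of 0.

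The genes most like Il6st were sought among the 9273 other genes with at least 100 counts in every library, by the Euclidean distance between log2 CPM profiles (each minus its own mean) over the 4 libraries. The nearest were Cacna1e (distance 0.055), Tmcc2 (0.082), Macf1 (0.084), Met (0.086) and Mdn1 (0.091). The choice by profile fixes that their fold changes and the order of their control libraries are like those of Il6st, so the values are a description. Cacna1e was at 14.8 and 11.6 CPM in the control libraries and at 8.77 and 8.96 CPM with EGCG. The exonic lengths of these genes were 25228 bases for Cacna1e, 5692 for Tmcc2, 31402 for Macf1, 7679 for Met and 21836 for Mdn1. With the length correction the log2 fold change went from -0.58 to -0.35 for Cacna1e, from -0.54 to -0.29 for Macf1, from -0.54 to -0.32 for Mdn1, from -0.62 to -0.57 for Tmcc2 and from -0.68 to -0.59 for Met. The distances of the other members from Il6st ran from 0.488 for Tyk2 (rank 1328 of the 9273 genes) to 0.648 for Jak1 (rank 4411).

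Beyond the members, 121 further genes of the pathway were listed by their roles, of which 112 were tested. By edgeR's quasi-likelihood test 0 of them were called, against 2 by DESeq2 (Cbl and Saa3). At an unadjusted p under 0.05, 11 were lower (9.82%, against 7.02% of all tested genes) and 5 were higher (4.46%, against 5.22%). Their median log2 fold change was -0.020, with 62 genes below 0, and it turned to 0.029 with the length correction, with 48 genes below 0. Over all tested genes the median also rose, from 0.0031 to 0.034, and 6210 of 14666 were below 0 with the length correction. The turn was thus not particular to the listed genes.

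**Figure D5:**
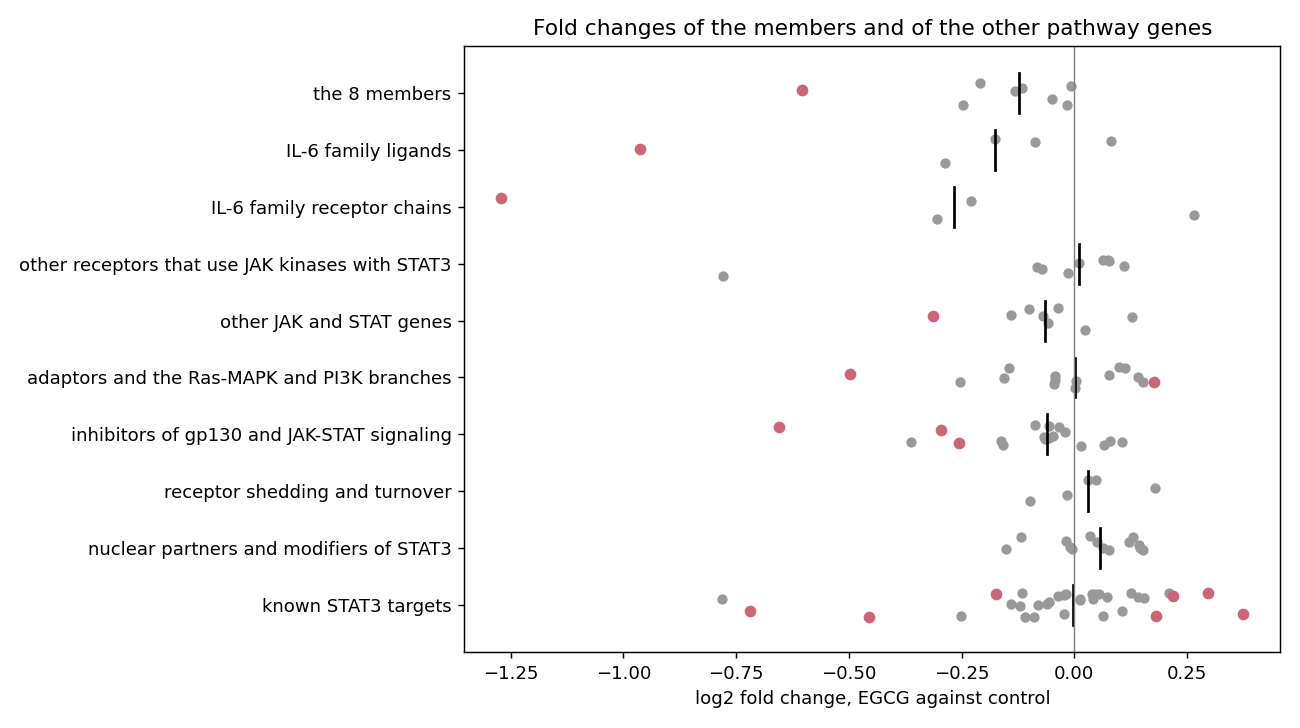
Log2 fold change of each tested gene, EGCG against control, for the members and for 9 lists of other pathway genes, with the median of each list as a black line. Red points are Il6st and the 15 other pathway genes with an unadjusted p under 0.05 and no overlap between the groups. The median of the members lies at -0.12 and that of the STAT3 targets at -0.0031.

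Of the 9 other ligands of the IL-6 family, 5 were tested, with 4 lower and 1 higher in the EGCG treatment group. Lif, which encodes leukemia inhibitory factor, a cytokine that signals through gp130 and its own receptor, had counts of 46 and 52 in the control libraries and of 25 in each EGCG library. For Lif, the log2 fold change was -0.96 (standard error 0.29, edgeR quasi-likelihood adjusted p 0.218), and it was below 0 under each alternative and with each library left out. The most abundant of these genes per length was Ebi3, a subunit of IL-27 and IL-35, at 72.4 to 80.1 RPKM over the 4 libraries, at a log2 fold change of 0.08 (standard error 0.08).
Of the 7 other receptor chains of the family, 4 were tested. Il31ra, a chain of the IL-31 receptor, had counts of 14 and 13 in the control libraries and of 6 and 5 with EGCG, at a log2 fold change of -1.27 (standard error 0.52, edgeR quasi-likelihood adjusted p 0.355). Il11ra1, the IL-11 receptor, was the most abundant at 1.52 to 2.12 RPKM. Il6ra was thus above every tested chain of this list per length. Csf3r, the G-CSF receptor, which also signals to STAT3, was at 987 to 1012 RPKM, and its log2 fold change was 0.012 (standard error 0.08).

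Among the 8 other JAK and STAT genes, Stat2, a transcription factor of the type I interferon response, was at 62.3 and 73.1 CPM in the control libraries and at 52.1 and 56.9 CPM with EGCG. The groups did not overlap, at a log2 fold change of -0.31 (standard error 0.09, edgeR quasi-likelihood adjusted p 0.221). Stat2 was at -0.19 without control replicate 2, and at -0.42 without control replicate 1, where it was called (edgeR adjusted p 0.0449). Stat6, the most abundant of this list, had a log2 fold change of 0.024 (standard error 0.07).
Among the inhibitors of the pathway, 14 of 18 tested genes were lower and 4 were higher in the EGCG treatment group, and 11 were lower with the length correction. Of all tested genes, 49.4% were lower, and with the length correction 6210 of 14666 were. Cbl, a ubiquitin ligase that turns over activated receptors, was at 576.7 and 583.6 CPM in the control libraries and at 485.5 and 459.3 CPM with EGCG. Its log2 fold change was -0.30 (standard error 0.07, edgeR quasi-likelihood adjusted p 0.133) and fell in size to -0.15 with the length correction. Socs2, a feedback inhibitor best known for the growth hormone receptor, had counts of 147 and 163 in the control libraries and of 90 and 106 with EGCG, at a log2 fold change of -0.66 (standard error 0.18, edgeR quasi-likelihood adjusted p 0.162). Socs7, of the same family, had a log2 fold change of -0.26 (standard error 0.11). Socs3, the feedback inhibitor that binds gp130 itself, is outside the rule for named genes and was chosen after its values were seen. It was at 90.1 and 87.3 CPM in the control libraries and at 72.9 and 85.6 CPM with EGCG, at a log2 fold change of -0.16 (standard error 0.09). This was -0.049 without EGCG replicate 1 and -0.28 without EGCG replicate 2. Ptpn6, which encodes SHP1, was the most abundant inhibitor per length, at a log2 fold change of 0.07 (standard error 0.08).

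In the adaptors and the Ras-MAPK and PI3K branches, Src, a kinase, was at 10.1 and 7.83 CPM in the control libraries and at 6.56 and 6.16 CPM with EGCG, at a log2 fold change of -0.50 (standard error 0.18), and -0.30 without control replicate 1. Map2k1, which encodes MEK1, was at 163.2 and 178.0 CPM in the control libraries and at 182.4 and 203.2 CPM with EGCG, at a log2 fold change of 0.18 (standard error 0.08), and 0.098 without EGCG replicate 2. Mapk3 (ERK1) was the most abundant of this list, with 0.11 (standard error 0.07). Neither Src nor Map2k1 was called. The genes of receptor shedding and of nuclear partners of STAT3 held 0 genes with an unadjusted p under 0.05. Their most abundant members were Adam17, the protease that sheds IL-6Rα, at a log2 fold change of -0.017 (standard error 0.07) that turned to 0.062 with the length correction, and Rac1, with 0.15 (standard error 0.08). With a library left out, the log2 fold change ran from 0.076 to 0.22 for Rac1, from 0.039 to 0.13 for Ebi3, from 0.036 to 0.11 for Ptpn6 and from 0.015 to 0.036 for Stat6, and it crossed 0 for Adam17 (-0.034 to 0.0051) and Csf3r (-0.0019 to 0.032).

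Known targets of STAT3 stood on both sides of 0, as 17 of the 34 tested were lower and 17 were higher in the EGCG treatment group. Their median log2 fold change was -0.0031, and 0.018 with the length correction, against 0.0031 and 0.034 over all tested genes. By edgeR's quasi-likelihood test 0 were called, against 1 by DESeq2, and at an unadjusted p under 0.05, 3 were lower and 4 were higher. Saa3, an acute-phase protein gene, was at 61.8 and 67.4 CPM in the control libraries and at 47.0 and 47.2 CPM with EGCG. Its log2 fold change was -0.46 (standard error 0.09, edgeR quasi-likelihood adjusted p 0.0546). Saa3 was called under some alternatives of the processing, and its edgeR quasi-likelihood adjusted p reached 0.562 under another. Tnfaip3, an inhibitor of NF-κB, had a log2 fold change of -0.17 (standard error 0.08). This value was -0.084 without EGCG replicate 1, -0.26 without EGCG replicate 2 and -0.093 with the length correction.
In the other direction, Cebpd, a transcription factor of the acute-phase response, was at 263.8 and 262.0 CPM in the control libraries and at 338.4 and 307.7 CPM with EGCG. For Cebpd, the log2 fold change was 0.30 (standard error 0.08, edgeR quasi-likelihood adjusted p 0.138). Cebpb, a transcription factor of emergency granulopoiesis, had a log2 fold change of 0.22 (standard error 0.08), S100a8, an alarmin of neutrophils, had 0.38 (standard error 0.12), and Lrg1, a secreted glycoprotein of neutrophil granules, had 0.18 (standard error 0.08). Without EGCG replicate 2, Cebpb was at 0.10 and Lrg1 at 0.10, while Cebpb was at 0.33 without EGCG replicate 1. S100a8 was at 0.23 without control replicate 1. S100a9 was the most abundant gene of the list, with 0.21 (standard error 0.12) and 0.12 with the length correction, and its groups overlapped. S100a9 was at 0.057 without control replicate 1, 0.092 without EGCG replicate 1, 0.32 without EGCG replicate 2 and 0.39 without control replicate 2, where it was called (edgeR adjusted p 0.0260). S100a8 and S100a9 are also among the neutrophil markers.

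The summed levels of several other lists of cell type markers did not overlap between the groups. Of all tested genes, 21.2% lay lower and 21.5% higher with EGCG without overlap, so such a gap is common with 2 libraries per group. As for neutrophils, the sums overlapped for dendritic cells, NK cells, stromal cells, erythroid cells, basophils or mast cells, and epithelial tumor cells. In bulk samples, fewer cells of a type and less RNA per cell cannot be told apart. The 7 endothelial markers summed to 135.9 and 143.7 CPM in the control libraries and to 106.1 and 115.2 CPM with EGCG. All 6 of them that were tested were lower, while Emcn was near 0, with counts from 0 to 5. The 8 macrophage markers summed to 405.8 and 397.9 CPM in the control libraries and to 310.7 and 328.8 CPM with EGCG, with all 8 lower. Markers of monocytes or monocytic MDSCs summed to 1083 and 1063 CPM against 1004 and 1003 CPM, with 6 of 8 lower. Eosinophil markers summed to 1172 and 1012 CPM against 993 and 828 CPM, with 5 of 5 lower. The 5 platelet or megakaryocyte markers summed to 38.7 and 43.6 CPM against 35.4 and 34.2 CPM, with 5 of 5 lower. B cell markers stood higher with EGCG, at 1753 and 1848 CPM against 1948 and 2004 CPM, and so did T cell markers, at 92.3 and 106.5 CPM against 106.8 and 110.5 CPM. The 5 epithelial tumor cell markers differed among themselves. Epcam had 65 and 59 counts in the control libraries against 92 and 99 with EGCG (log2 fold change 0.63, standard error 0.20), and Cdh1 had 402 and 366 against 294 and 345 (-0.26, standard error 0.12). Krt18 had 10 to 24 counts per library, Krt8 had 0 to 2 and Krt19 was at 0 in all 4. Of the 6 stromal markers, Pdgfrb was detected most, at 10 to 27 counts, and Dcn had 0 or 1. The part of these cell types in the level of Il6st was not tested.

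The promoters of the members (250 bases before to 50 after the start, RefSeq, GRCm38.p6) were searched for TTCNNNGAA, the letters of a STAT site, on both strands. All 8 members had a promoter entry, and these letters were in 0 of the 8 windows, against 8.30% of all 32851 promoter windows. At that share, 8 windows are too few to tell 0 from the background.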

How the data were processed

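Reads were mapped by the authors to GRCm38 using STAR 2.6.0c. Whole-number counts per gene from featureCounts 1.6.2 (Ensembl release 91), not normalized, were deposited by the authors, under a name that gives them as non-stranded. The 4 columns were matched to samples by their labels, there were 0 other columns of samples, and 0 rows named no gene. Depth was between 17767318 and 18390385 counts per library. Genes were filtered with filterByExpr (minimum count of 10), scaled by TMM, and tested with the quasi-likelihood test of edgeR 4.0.16 (legacy form, no block) in R 4.3.3, the kind of test the study's methods name, and p-values were adjusted after Benjamini-Hochberg across all 14682 genes. Standard errors are the log2 fold change divided by the square root of F. The fit was first tested on simulated counts of 14428 genes, where at a 1.5-fold change 52.1% of 96 genes were called, and at a 2-fold change 83.7% of 98. The simulated spread followed a trend with abundance and not each gene's own spread, so these shares need not hold for the measured genes. An exact permutation test of 2 against 2 libraries cannot go below p = 0.333. The length correction enters a loess fit (span of 0.4) of log counts on log exonic length in each library as an offset, and 16 tested genes had no length. This offset took the place of the TMM factors, so the setting changed the scaling of the libraries as well as the length term.

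The members, the gene lists and the markers were chosen with earlier results of these data known. The genes named are the 8 members, pathway genes called or with an unadjusted p under 0.05 and no overlap, the most abundant gene of each list per length, and the 5 genes most like Il6st, besides Socs3, and 1 gene that met this rule is not reported here. Itgam has 2 identifiers, and the one with more counts was used. Alternatives were other scalings, filters, fits and DESeq2 1.42.0, the length correction, a replicate block, and leaving out each library.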

Additional observations from a re-analysis of the deposited data

How the results depend on the processing

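Il6st kept its direction in all 11 alternatives and with each of the 4 libraries left out. Its log2 fold change was no longer called with upper-quartile scaling (-0.60), without a filter on low counts (-0.60), with a minimum count of 30 (-0.61), with the length correction (-0.47) and with the replicate block and the length correction together (-0.47), so that 0 members were called under these 5 settings. With a library left out, 1 group holds 1 library, which is assumed to vary like the other group. These fits called more genes in all, and the call of Il6st in each of them is no sign of stability.

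The direction of 3 members turned. With the length correction the log2 fold change was 0.052 for Il6ra, 0.096 for Stat3 and 0.073 for Jak1, and with the replicate block added it was 0.052, 0.096 and 0.075. Jak1 was at 0.00079 with upper-quartile scaling. With a library left out, Jak1 ran from -0.046 to 0.040 and Stat3 from -0.032 to 0.0071.

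The count of all called genes was 22. It was 11 with upper-quartile scaling, 151 with library size only, 0 without a filter (where edgeR gave 1795 genes an unadjusted p under 0.05), 10 with a minimum count of 30, 63 with robust estimation, 64 with DESeq2, 3 with the length correction, 4 with the length correction and the replicate block, and between 77 (control replicate 1 left out) and 354 (control replicate 2 left out) when each library was dropped. Of the other pathway genes, 3 (among them Cbl and Saa3) were called with library size only, 1 (Saa3) with the newer form of the test and 1 with robust estimation, 2 with DESeq2, and 2 to 5 with a library left out, Saa3 each time, Stat2 without control replicate 1, S100a8 without control replicate 2 or EGCG replicate 2, S100a9 without control replicate 2, and Cebpd and Socs2 without EGCG replicate 2. The cause of these shifts was not tested.

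No source used here says what the replicate numbers mark. Deviations of libraries with the same number correlated at 0.034 across genes, and the replicate block alone gave 30 called genes and -0.60 for Il6st. With 2 libraries per group, 52.1% of simulated 1.5-fold changes were called, and smaller changes were not simulated.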
